A study of Homo sapiens with 12 samples.

Results

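The C/EBP family comprises the CCAAT/enhancer binding proteins, transcription factors of the basic leucine zipper (bZIP) class. Its 5 members read here, CEBPA, CEBPB, CEBPD, CEBPE and CEBPG, were taken by gene symbol from the 20003 genes measured by mRNA-seq in acute myeloid leukemia (AML) cells, and all 5 passed the filter on low values in every comparison. NB4 is a line of acute promyelocytic leukemia that carries PML-RARα, and Kasumi-1 is a line of t(8;21) AML that carries AML1-ETO. Each line is a single established culture, without further genetic change, and was incubated for 48 h by the labels, with 1 μM OGP46, a kaurene diterpenoid derived from oridonin, or with DMSO as control. A figure legend of the study gives a longer incubation for the mRNA-seq, so the time is uncertain. There were 3 samples for each of the 4 groups, 12 samples in all, and the labels number them from 1 to 3 in each group. The study describes its experiments as repeated independently, but the labels do not tie a sample to a culture, so p-values measure the spread between these samples, which may be technical. The question was how the mRNA of this family differed between the lines and with OGP46.

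C/EBP proteins bind DNA as dimers, with each other or with bZIP proteins of the ATF and AP-1 groups, and switch on myeloid genes. C/EBPα drives the step from the progenitor to the granulocyte lineage, C/EBPε the late granulocyte genes, and C/EBPβ and C/EBPδ the emergency, monocytic and inflammatory programs. C/EBPγ lacks a transactivation domain of its own and pairs with other bZIP proteins, ATF4 among them, in the response to amino acid shortage. Loss of C/EBPα function is a known feature of AML, and PML-RARα and AML1-ETO are both known to interfere with it.

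Values are FPKM, fragment counts corrected for transcript length and library size, so levels can be set side by side between genes. The sum over all genes was 248207 to 310262 FPKM per sample, the read depth is unknown, and 9339 to 9746 genes per sample reached 1 FPKM. The Kasumi-1 markers RUNX1T1, KIT, CD34 and TRH told the lines apart. They summed to between 228 and 291 FPKM in Kasumi-1 samples and to at most 2.81 FPKM in NB4 samples. Among NB4 samples, control 3 held the most of them (CD34 1.31 FPKM and KIT 1.22 FPKM). Among Kasumi-1 samples, control 2 held the most of PRG2 (2.98 FPKM) and MMP9 (1.49 FPKM). These genes stood at 75.5 to 272 and at 47.0 to 107 FPKM in NB4 controls. ITGB2, also higher in NB4, was highest in Kasumi-1 control 3 (11.5 FPKM). The promyelocytic genes MPO, AZU1, PRTN3, ELANE, CTSG and CD33 were meant to mark NB4. Of these 6, 5 were called lower in NB4 controls by the criteria given below. CD33 was level, at 7.49, 9.02 and 7.72 FPKM in NB4 controls and 8.50, 8.77 and 8.43 FPKM in Kasumi-1 controls. The sum of the 6 averaged 3302 FPKM in NB4 controls and 10678 FPKM in Kasumi-1 controls, so no marker list showed the identity of NB4 directly. Of 8 markers of lymphoid, erythroid, epithelial and other cells, only EPCAM passed the filter. EPCAM stood at 41.4 to 56.0 FPKM in Kasumi-1 controls and at 2.95 to 5.94 FPKM in NB4 controls (log2 difference −3.51).

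Gene positions are given for the members whose sequence is shown, from the GENCODE annotation of GRCh38, the build named in the submitters' processing notes. CEBPB occupies chr20:50190734-50192689 on the plus strand as 1 exon, and an antisense gene, CEBPB-AS1, overlaps it. CEBPA occupies chr19:33299934-33302564 on the minus strand as 1 exon, with 2 antisense genes across it. CEBPG lies on the same chromosome at chr19:33373330-33382686 on the plus strand, with 2 exons in each of 2 transcripts. CEBPE occupies chr14:23117304-23119616 on the minus strand with 2 exons. The libraries were stranded, but whether the counting used the strand is not given in the sources used here, so CEBPA and CEBPB reads cannot be told apart from reads of their antisense neighbours.

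Sequences before RefSeq starts (GRCh38.p14) were used for 4 of the 5 members. Stretches of them are shown because CEBPB and CEBPG were the members with separate groups in NB4 cells, while CEBPA differed most between the lines. Some of these stretches lie inside the GENCODE genes. These are the CEBPB site, in its exon, the CEBPE site, the CEBPG stretch, and the CEBPA stretch from its TATAAA onwards. Each is written 5′ to 3′ on the strand of the gene, positions are counted backwards from 1 at the base before the RefSeq start, and capitals mark a match to a searched motif. The CEBPA stretch is chr19:33302535-33302784, the CEBPB stretches are chr20:50190580-50190733 and chr20:50190762-50190791, the CEBPG stretch is chr19:33373896-33374112, and the CEBPE stretch is chr14:23119336-23119365.
CEBPB promoter, distal part: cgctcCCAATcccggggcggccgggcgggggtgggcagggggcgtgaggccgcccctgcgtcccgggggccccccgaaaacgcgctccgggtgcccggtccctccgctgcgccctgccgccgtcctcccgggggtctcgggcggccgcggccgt
CEBPB site: aggggccggcgTGACGCAGCggttgctacg
CEBPG intron 1: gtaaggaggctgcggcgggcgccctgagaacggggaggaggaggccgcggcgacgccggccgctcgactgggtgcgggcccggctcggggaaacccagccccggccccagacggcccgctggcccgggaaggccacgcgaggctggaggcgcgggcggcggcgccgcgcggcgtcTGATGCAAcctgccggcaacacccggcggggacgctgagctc
CEBPA promoter: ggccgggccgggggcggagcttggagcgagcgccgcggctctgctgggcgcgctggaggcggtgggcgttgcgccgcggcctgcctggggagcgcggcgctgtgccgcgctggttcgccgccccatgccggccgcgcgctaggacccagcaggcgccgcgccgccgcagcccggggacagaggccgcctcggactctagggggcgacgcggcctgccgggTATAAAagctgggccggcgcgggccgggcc
CEBPE site: tgcccctcccTGAGTCAccccaaggggaga

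On both strands of the 250 bases before each of 35116 RefSeq starts, 8 motifs were searched, with N for any base. They were the C/EBP site TTGCNNAA, the C/EBP-ATF composite TGATGNAA, the cyclic AMP response element TGACGTCA, its shorter core TGACG, the AP-1 site TGANTCA, the antioxidant response element core TGACNNNGC, the TATA box TATAAA and the CCAAT box. The CEBPB window before its downstream RefSeq start held TGACGCAGC at positions 57 to 49, a match to the antioxidant response element core (in 10.9% of windows) that overlaps the shorter core TGACG (21.2%). A TATAAA stood at positions 29 to 24 of the same window (10.7% of windows), also inside the GENCODE exon. A CCAAT stood before that exon, at 245 to 241 (32.0%). The window before the downstream CEBPG start, within intron 1 of the GENCODE gene, held the C/EBP-ATF composite TGATGCAA at positions 42 to 35. Of all windows 3.14% hold this composite. The other CEBPG window, also inside the GENCODE gene, held a CCAAT box on the opposite strand at positions 85 to 81 and 24 to 20. The CEBPA window held TATAAA at 30 to 25, and the CEBPE window held the AP-1 site TGAGTCA at 100 to 94 (6.57% of windows). The C/EBP site itself (9.05%) and the full cyclic AMP response element (1.65%) were in none of the 6 windows of the members. A match is a description of the letters and shows no binding.

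The lines differed most in CEBPA, which leads granulocyte commitment. CEBPA stood at 72.9, 81.1 and 81.8 FPKM in NB4 controls 1 to 3 and at 6.66, 9.03 and 9.36 FPKM in Kasumi-1 controls 1 to 3. Every NB4 control lay far above every Kasumi-1 control, and 4253 of 12302 genes tested had all NB4 controls above all Kasumi-1 controls. The means of CEBPA were 78.6 ± 4.99 and 8.35 ± 1.47 FPKM (SD, n = 3). CEBPA was 9.42-fold higher in NB4, a log2 difference of 3.23 (SE 0.13, adjusted p = 8.48e-08 by limma). Genes were called when the p-value, adjusted after Benjamini and Hochberg over all genes tested, was below 0.05 and the log2 difference was 0.58 (1.49-fold) or more in size. CEBPA was the 1 member of 5 called between the control groups, where 52.4% of all 12302 genes tested were called, 22.7% higher and 29.7% lower in NB4.

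The other members were close between the lines. CEBPE, the factor of late granulocytes, stood at 15.4, 19.4 and 17.3 FPKM in NB4 controls and at 22.9, 24.7 and 19.6 FPKM in Kasumi-1 controls. CEBPG stood at 10.1, 9.84 and 9.73 FPKM in NB4 controls and at 10.2, 13.1 and 12.4 FPKM in Kasumi-1 controls. Both genes had all NB4 controls below all Kasumi-1 controls, as did 43.1% of the genes tested. The log2 differences were −0.36 for CEBPE (SE 0.11, adjusted p = 0.0158) and −0.26 for CEBPG (SE 0.10, adjusted p = 0.0411), both under the minimum size. Scaled to equal sums, they were −0.16 (adjusted p = 0.164) and −0.06 (adjusted p = 0.573), so neither difference outlasted this scaling. CEBPB (log2 difference 0.17, adjusted p = 0.209) and CEBPD (0.24, adjusted p = 0.0958) had overlapping control groups. With equal sums their log2 differences rose to 0.37 (adjusted p = 0.0108) and 0.44 (adjusted p = 0.00367), still under the minimum size. Equal sums also moved the split of called genes from 2790 higher and 3659 lower in NB4 to 3585 higher and 3004 lower.

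**Figure D1:**
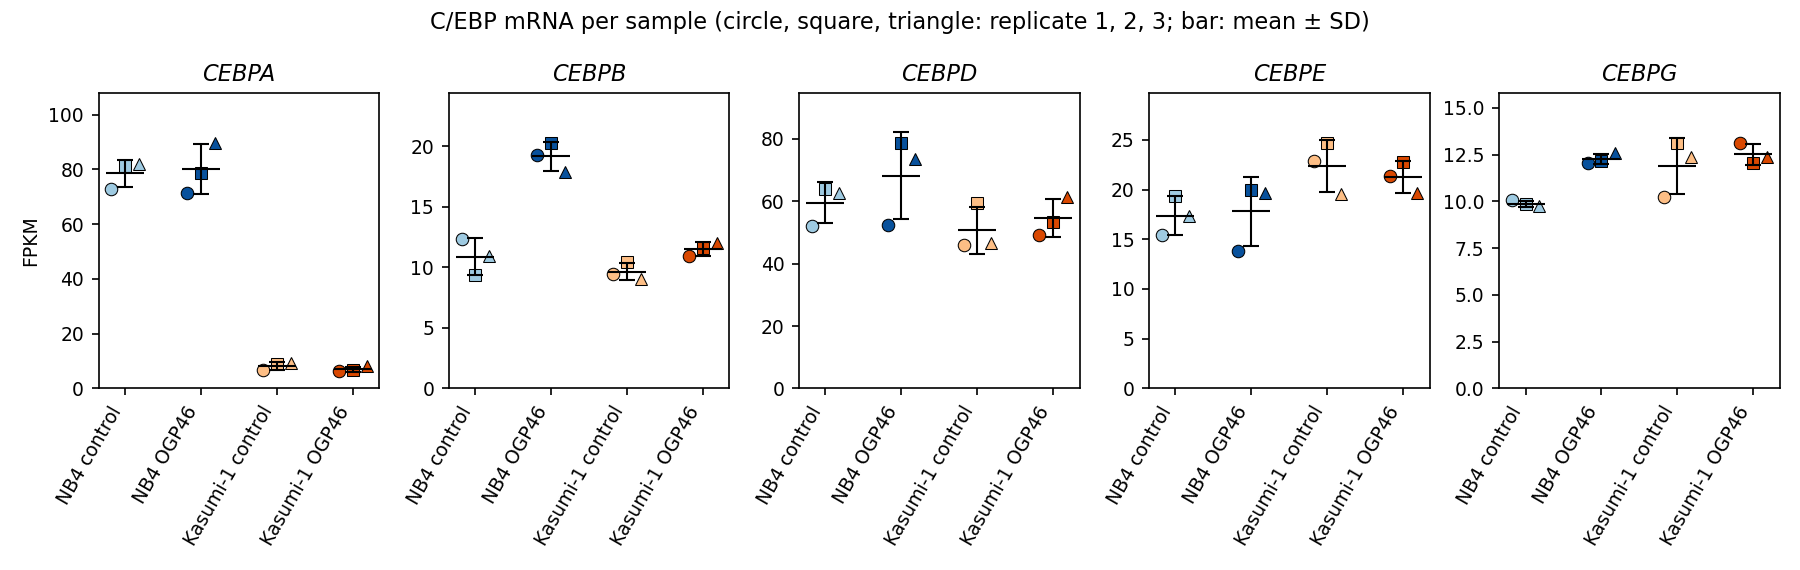
FPKM (linear axis from 0) of each C/EBP gene in the 12 samples, by cell line and treatment; symbols mark replicates 1 to 3 and bars the mean ± SD of 3 samples. CEBPA separates the lines (78.6 against 8.35 FPKM in controls), and CEBPB separates OGP46 from control in NB4 (19.1 against 10.9 FPKM).

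The make-up of the family therefore differed between the lines. The 5 members summed to 176 ± 11.7 FPKM in NB4 controls and to 103 ± 11.9 FPKM in Kasumi-1 controls (SD, n = 3). CEBPA was 44.6% ± 0.345 of this sum in NB4 controls and 8.13% ± 1.36 in Kasumi-1 controls. CEBPD, an inducible family member of acute phase responses, was the largest share in Kasumi-1 controls with 49.1% ± 1.52 and the second in NB4 controls with 33.7% ± 1.50. In NB4 controls the order of levels was CEBPA, CEBPD, CEBPE, CEBPB and CEBPG, and only the neighbours CEBPB and CEBPG overlapped. In Kasumi-1 controls it was CEBPD, CEBPE, CEBPG, CEBPB and CEBPA, and the last 3 overlapped with their neighbours in this order.

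**Figure D2:**
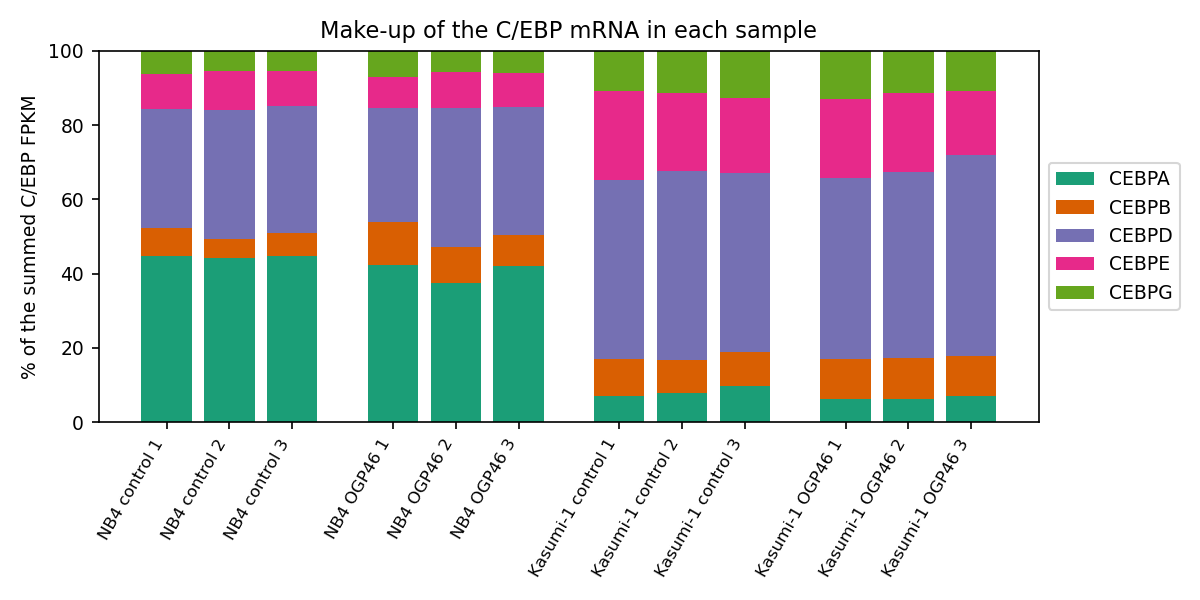
Share of each C/EBP gene (%) in the summed FPKM of the 5 genes, 1 bar per sample for NB4 and Kasumi-1, control and OGP46, replicates 1 to 3. CEBPA makes up 44.2% to 44.8% in NB4 controls and at most 9.64% in Kasumi-1 controls.

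In NB4 cells OGP46 up-regulated CEBPB, the factor of monocytic and emergency granulocytic genes. CEBPB stood at 12.3, 9.33 and 10.9 FPKM in controls 1 to 3 and at 19.3, 20.3 and 17.9 FPKM with OGP46. All 3 OGP46 samples lay above all 3 controls, as was the case for 32.7% of all genes tested. The log2 fold change was 0.82 (SE 0.11, 95% CI 0.56 to 1.08), a 1.76-fold rise with an adjusted p of 0.0289 by limma, and CEBPB ranked 251 of 11750 genes tested. CEBPB was the 1 member of 5 called, against 1.45% of all genes called higher and 0.111% called lower. Control and OGP46 samples of the same number deviated together across genes, so the number was also used as a block. With this replicate block the adjusted p of CEBPB was 4.54e-04, and CEBPB was again the only member called, against 5.06% of all genes called higher and 1.15% called lower. CEBPB itself did not follow the number, since sample 2 was the lowest control and the highest with OGP46. Its log2 ratios within pairs were 0.64, 1.11 and 0.70, and its SE with the block was 0.10. The adjusted p also depends on variance shared across genes and on all genes tested, so its fall shows no pair effect on CEBPB.

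The FPKM of most genes were higher with OGP46 in NB4 cells, with a median log2 fold change of 0.18 over all genes tested. CEBPB stood 0.64 above this median. When samples were scaled to equal sums, centred on their median or quantile normalized, its log2 fold change was 0.69, 0.60 and 0.63, and the adjusted p rose to 0.0994, 0.155 and 0.132. With the replicate block, CEBPB stayed called with equal sums (adjusted p = 0.00476) and with median centring (adjusted p = 0.0125). Without the block, CEBPB was also not called when any 1 of 5 of the 6 NB4 samples was left out (log2 fold change 0.71 to 0.91, adjusted p up to 0.134), the exception being OGP46 sample 2 (adjusted p = 0.0303). Without NB4 control 3, which held the most Kasumi-1 marker signal, it was 0.83 (adjusted p = 0.134).

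CEBPG, the dimer partner without its own activation domain, was the other member with separate groups in NB4 cells. CEBPG stood at 10.1, 9.84 and 9.73 FPKM in controls and at 12.1, 12.2 and 12.6 FPKM with OGP46. Every OGP46 sample was above every control, as was true of 32.7% of all genes tested. The log2 fold change was 0.31 (SE 0.08, 95% CI 0.13 to 0.49, adjusted p = 0.0683), under the minimum size for a call. With the replicate block the adjusted p was 0.0279, although the SE was larger (0.09). The fold change lay 0.13 above the median of all genes, and after median centring it was 0.09 (adjusted p = 0.504).

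CEBPA, CEBPD and CEBPE were not called in NB4 cells. CEBPA stood at 71.6, 78.8 and 89.8 FPKM with OGP46, across the range of its controls, with a log2 fold change of 0.02 (95% CI −0.20 to 0.25, adjusted p = 0.891). Relative to the median of all genes this was −0.16, and with median centring its sign turned to −0.20 (adjusted p = 0.334, and 0.0379 with the replicate block, under the minimum size). CEBPD stood at 52.1, 63.9 and 62.7 FPKM in controls and at 52.3, 78.8 and 73.4 FPKM with OGP46. CEBPD was higher in 3 of 3 pairs, with a log2 fold change of 0.18 (95% CI −0.18 to 0.54, adjusted p = 0.454, and 0.137 with the replicate block). The groups overlapped, and the value equalled the median of all genes. CEBPE stood at 13.8, 20.0 and 19.6 FPKM with OGP46, and its log2 fold change was 0.02 (95% CI −0.33 to 0.38, adjusted p = 0.932), turning to −0.20 with median centring. With OGP46 the order of levels in NB4 cells was CEBPA, CEBPD, CEBPB, CEBPE and CEBPG, so the mean of CEBPB was above that of CEBPE. The samples of CEBPA and CEBPD overlapped, as did those of CEBPB and CEBPE.

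**Figure D3:**
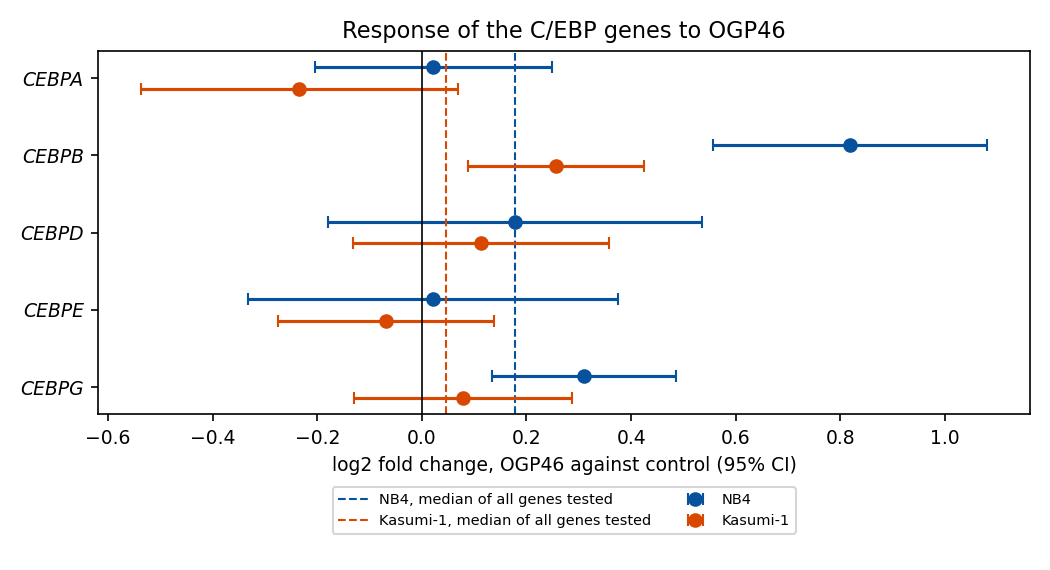
log2 fold change of each C/EBP gene, OGP46 against control, in NB4 and Kasumi-1 cells (points) with 95% confidence intervals from limma; dashed lines mark the median of all genes tested (0.18 and 0.05). The CEBPB interval in NB4 cells runs from 0.56 to 1.08, above the median of all genes.

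In Kasumi-1 cells 0 of 5 members were called, against 0.0169% of 11835 genes called higher and 0.0169% called lower. With the replicate block it was also 0 of 5, against 0.27% called higher and 0.346% called lower. At an unadjusted p under 0.05 by limma, 1 of 5 members passed, CEBPB, as did 15.6% of all genes. CEBPB stood at 9.47, 10.4 and 9.02 FPKM in controls and at 10.9, 11.6 and 12.0 FPKM with OGP46, so every OGP46 sample was above every control, as for 17.4% of all genes. Its log2 fold change was 0.26 (SE 0.08, 95% CI 0.09 to 0.43), with an adjusted p of 0.163 and of 0.0722 with the replicate block.

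The remaining members in Kasumi-1 cells had overlapping groups. CEBPA stood at 6.30, 6.74 and 8.08 FPKM with OGP46, lower than the control of its own number in 3 of 3 pairs, with a log2 fold change of −0.23 (95% CI −0.54 to 0.07, adjusted p = 0.426, and 0.117 with the replicate block). It ran from −0.39 without control 1 to −0.14 without control 3, and with the block and median centring it was −0.30 (adjusted p = 0.0222), under the minimum size. Relative to the median of all genes CEBPA was −0.28 with all samples and −0.25 without control 2. That control held the most PRG2 and MMP9, and the part of NB4 signal in its CEBPA value was not tested. CEBPD stood at 45.9, 59.3 and 46.8 FPKM in controls and at 49.2, 53.3 and 61.4 FPKM with OGP46, and its log2 fold change was 0.11 (adjusted p = 0.645). CEBPE (21.4, 22.8 and 19.6 FPKM with OGP46) had a log2 fold change of −0.07 (adjusted p = 0.749), and CEBPG (13.1, 12.0 and 12.4 FPKM with OGP46) one of 0.08 (adjusted p = 0.718). With OGP46 the order was CEBPD, CEBPE, CEBPG, CEBPB and CEBPA, with no overlap between neighbours.

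The difference between the lines was tested for each member as an interaction in 1 model of the 12 samples. For CEBPB the log2 fold change was 0.56 larger in NB4 than in Kasumi-1 cells (SE 0.14, 95% CI 0.26 to 0.87). Its unadjusted p was 0.00161 and its adjusted p 0.178, or 0.0738 with the replicate block. The CEBPB response was therefore not shown to differ between the lines. CEBPA (0.26, adjusted p = 0.613), CEBPG (0.23, adjusted p = 0.494), CEBPE (0.09, adjusted p = 0.875) and CEBPD (0.07, adjusted p = 0.921) were not called either. No gene at all was called in this test (0% of 12309, with 1225 genes larger and 123 smaller in NB4 at an unadjusted p under 0.05), and 1.93% were called with the replicate block, none of them a member.

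The ratio of CEBPB to CEBPA within a sample, which multiplying a sample by 1 factor cannot change apart from the pseudocount, moved upwards in the samples of both lines. In NB4 controls it was 0.169, 0.115 and 0.134, and with OGP46 it was 0.269, 0.258 and 0.199. In Kasumi-1 controls it was 1.42, 1.15 and 0.964, and with OGP46 it was 1.73, 1.72 and 1.49. The groups did not overlap in either line. What part NB4 signal had in the ratio of Kasumi-1 control 2 was not tested. The log2 ratio was higher with OGP46 by 0.80 in NB4 and by 0.49 in Kasumi-1 cells, each with p = 0.1 in a two-sided exact permutation test, the smallest that 3 against 3 samples allow, so neither could reach 0.05.

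**Figure D4:**
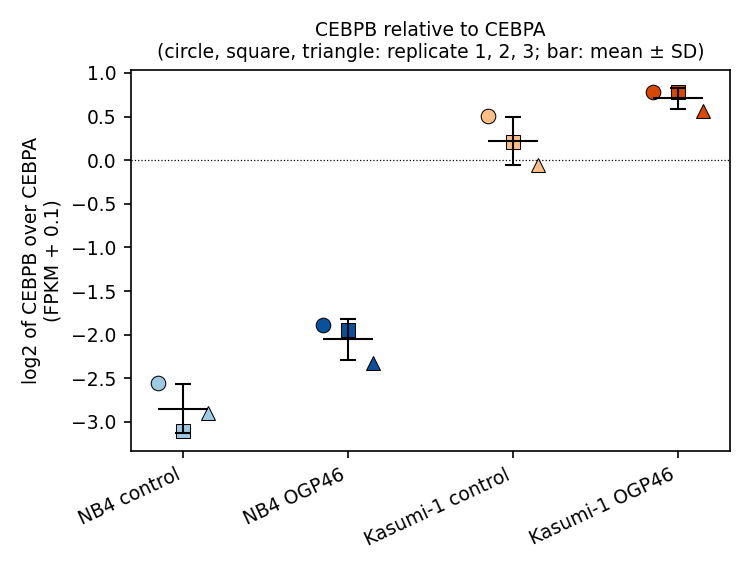
log2 of the CEBPB to CEBPA ratio (FPKM + 0.1) in each sample of the 4 groups; symbols mark replicates 1 to 3, bars the mean ± SD, and the dotted line equal levels. NB4 samples lie between −3.11 and −1.89 and Kasumi-1 samples between −0.05 and 0.78, with OGP46 above control in each line.

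Genes whose pattern was most like that of each member were ranked by Pearson r across the 12 samples, with the mean of each line subtracted, over 8795 genes. These are descriptions, since the samples share treatment and library. For CEBPB they were TRIB3 (r = 0.97), RHOU and GPAT4 (both 0.96), and for CEBPG they were KATNBL1 (0.97), UBB (0.96) and BIN2 (0.95). For CEBPA they were CENPB, SUPT16H and KTI12 (0.90 to 0.91), for CEBPD they were KMT2B, TSPAN14 and FOXRED2 (all 0.93), and for CEBPE they were NDUFS7 (0.95), ECI2 and MSMO1 (both 0.91). Among the members themselves, CEBPB and CEBPG were the most alike pair (r = 0.78), followed by CEBPD and CEBPE (0.67), and CEBPA and CEBPB had an r of −0.13.

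The list that follows and the later ones were chosen with earlier results of these data known, so their counts are descriptions. Beside them stand 1.45% of all genes called higher in NB4 cells, 5.06% with the replicate block, and 0.0169% and 0.27% in Kasumi-1 cells. Of 14 bZIP relatives and partners of the family, 13 were tested in NB4 cells and 0 were called. Their median log2 fold change was 0.48 beside 0.18 for all genes. With the replicate block 2 were called higher, FOS, an AP-1 subunit, and DDIT3, the C/EBP homologous protein CHOP, and these were also the largest changes. FOS stood at 2.11, 1.07 and 1.97 FPKM in controls and at 3.75, 2.60 and 2.90 FPKM with OGP46 (log2 fold change 0.85, adjusted p = 0.0885, and 0.00180 with the block). DDIT3 stood at 15.8, 6.73 and 6.85 FPKM in controls and at 22.5, 14.4 and 10.6 FPKM with OGP46 (0.74, adjusted p = 0.210, and 0.00126 with the block). FOS groups were apart, as for 32.7% of all genes in this direction. DDIT3 groups overlapped, with each OGP46 sample above its own control. In Kasumi-1 cells 0 of 13 were called with or without the block (median 0.06), the largest being NFIL3 (0.53, adjusted p = 0.230) and DDIT3 (0.39, adjusted p = 0.221).

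Of 18 regulators of C/EBP genes or proteins, 17 were tested in NB4 cells and 2 were up-regulated, both pseudokinases of the Tribbles family. TRIB2, known to send C/EBPα for degradation through the ligase COP1, stood at 10.4, 5.47 and 7.06 FPKM in controls and at 22.8, 13.0 and 18.6 FPKM with OGP46 (log2 fold change 1.25, SE 0.26, adjusted p = 0.0472). TRIB3, a stress-induced relative, stood at 17.2, 12.8 and 15.1 FPKM in controls and at 29.1, 30.4 and 23.8 FPKM with OGP46 (0.88, SE 0.13, adjusted p = 0.0299). Both had separate groups, as for 32.7% of all genes in this direction, and stayed called with the block. TRIB1 had a log2 fold change of −0.04 (adjusted p = 0.887), COP1 of 0.26 (adjusted p = 0.155), and the list a median of 0.20. In Kasumi-1 cells 0 of 17 were called, the largest being CALR (−0.25, adjusted p = 0.346) and CREB1 (0.21, adjusted p = 0.288). Between the controls 13 of 18 were called, 4 higher and 9 lower in NB4, beside 22.7% of all genes called higher and 29.7% lower. The largest were RUNX1T1, the ETO part of AML1-ETO and a Kasumi-1 marker (0.04 ± 0.04 against 8.52 ± 0.18 FPKM), and KLF4, a monocytic factor (3.13 ± 0.95 against 0.01 ± 0.02 FPKM).

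Amino acid and redox stress genes, which ATF4 and C/EBPγ are known to serve, were called higher in 3 of 13 cases in NB4 cells. Of all genes 1.45% were called higher, and the list had a median of 0.66 and values from 0.34 to 1.24. DDIT4, an inhibitor of mTORC1, stood at 16.7, 11.6 and 10.9 FPKM in controls and at 37.9, 32.6 and 22.7 FPKM with OGP46 (log2 fold change 1.24, adjusted p = 0.0351). ASNS, asparagine synthetase, stood at 15.4, 13.1 and 11.9 FPKM in controls and at 25.2, 29.5 and 19.9 FPKM with OGP46 (0.87, adjusted p = 0.0364). The third was TRIB3, and all had separate groups, as for 32.7% of all genes in this direction. With the block 7 of 13 were called higher, against 5.06% of all genes. In Kasumi-1 cells 0 of 14 were called, with a median of 0.01 and with SLC7A11 (0.42, adjusted p = 0.298) and DDIT4 (0.35, adjusted p = 0.572) largest. In the test of the difference between the lines 0 of 14 were called, and 7 of 14 with the block, all larger in NB4. Of all genes 0% were called in this test, and 1.93% with the block.

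Of 20 monocyte and inflammatory genes linked to C/EBPβ, 15 were tested in NB4 cells, with a median of 1.08. Up-regulated were 4 of these 15, beside 1.45% of all genes. Among them, ITGAM, the CD11b integrin, stood at 2.90, 2.40 and 2.91 FPKM in controls and at 5.89, 5.09 and 6.81 FPKM with OGP46 (log2 fold change 1.08, SE 0.14, adjusted p = 0.0233). IL10 (1.87, adjusted p = 0.0434), an anti-inflammatory cytokine below 1 FPKM in all samples, and PLAUR (0.68, adjusted p = 0.0462), the urokinase receptor, were up-regulated too. Both calls were lost without the block when any 1 of the 6 NB4 samples was left out (adjusted p 0.0522 to 0.161 for IL10 and 0.0637 to 0.176 for PLAUR), and the IL10 value ran from 0.49 to 2.97 between pseudocounts of 1 and 0.01. With the block 11 of 15 were called higher and 0 lower, against 5.06% and 1.15% of all genes. In Kasumi-1 cells 7 of the 20 passed the filter and 0 were called, with CXCL8, a neutrophil chemokine, largest (1.44, adjusted p = 0.164), followed by PTGS2 (0.65, adjusted p = 0.215), and CXCL8 was called with the block (adjusted p = 0.00505). In the test of the difference between the lines 0 of 16 were called, and 6 of 16 with the block, all larger in NB4. The share of all genes called with the block was 1.93%.

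Granulocyte genes had values in both directions in NB4 cells. Of 10 early granulocyte genes linked to C/EBPα, 9 were tested and 1 was called, SERPINA1, a protease inhibitor, at 1.05, 1.10 and 1.26 FPKM in controls and 2.83, 2.01 and 2.68 FPKM with OGP46 (log2 fold change 1.06, adjusted p = 0.0299). The median of this list was −0.49. With the block 4 were called lower, beside 1.15% of all genes. They were the primary granule genes ELANE, CTSG, PRTN3 and AZU1, which are named after their values were seen. ELANE was at 0.504, 3.30 and 14.5 FPKM in NB4 controls, highest in the sample with the most Kasumi-1 marker signal, beside 1040 to 1720 FPKM in Kasumi-1 cells, and the part of that signal in its values was not tested. Of 23 late granulocyte genes linked to C/EBPε, 14 were tested and 1 was called, NCF1, a subunit of the NADPH oxidase, at 5.11, 4.99 and 4.42 FPKM in controls and 16.5, 13.2 and 8.06 FPKM with OGP46 (1.30, adjusted p = 0.0364). With the block 8 were called higher and 2 lower, against 5.06% and 1.15% of all genes, and the list median was 0.63. NCF1 has near-identical pseudogenes, so its value is uncertain. Without the block, the calls of TRIB2, TRIB3, DDIT4, ASNS, ITGAM, SERPINA1 and NCF1 in NB4 cells were each lost under equal sums, median centring, quantile normalization, no filter and no trend, and when any 1 sample other than OGP46 sample 2 was left out. With the block they held under the values as deposited, equal sums and median centring.

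In Kasumi-1 cells 0 of 9 early and 0 of 11 late granulocyte genes were called, with medians of −0.18 and −0.19. The largest early changes were PRTN3 (−0.52, adjusted p = 0.170) and ELANE (−0.49, adjusted p = 0.0898), and the largest late ones were NCF1 (0.79, adjusted p = 0.147, called with the block at 0.0315) and PRG2 (−0.62, adjusted p = 0.418). PRG2 stood at 1.02, 2.98 and 0.913 FPKM in controls and at 0.828, 0.845 and 0.995 FPKM with OGP46. Its change thus rests on control 2, and the part of NB4 signal in that sample was not tested. Between the controls, 7 of 9 early genes were called lower and 2 higher in NB4, the line with more CEBPA, and 11 of 15 late genes were called higher and 4 lower, beside the 29.7% of all genes called lower and 22.7% called higher in this comparison. Monocyte genes were called higher in 8 of 14 and lower in 2, and stress genes were called higher in 6 and lower in 3 of 14.

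**Figure D5:**
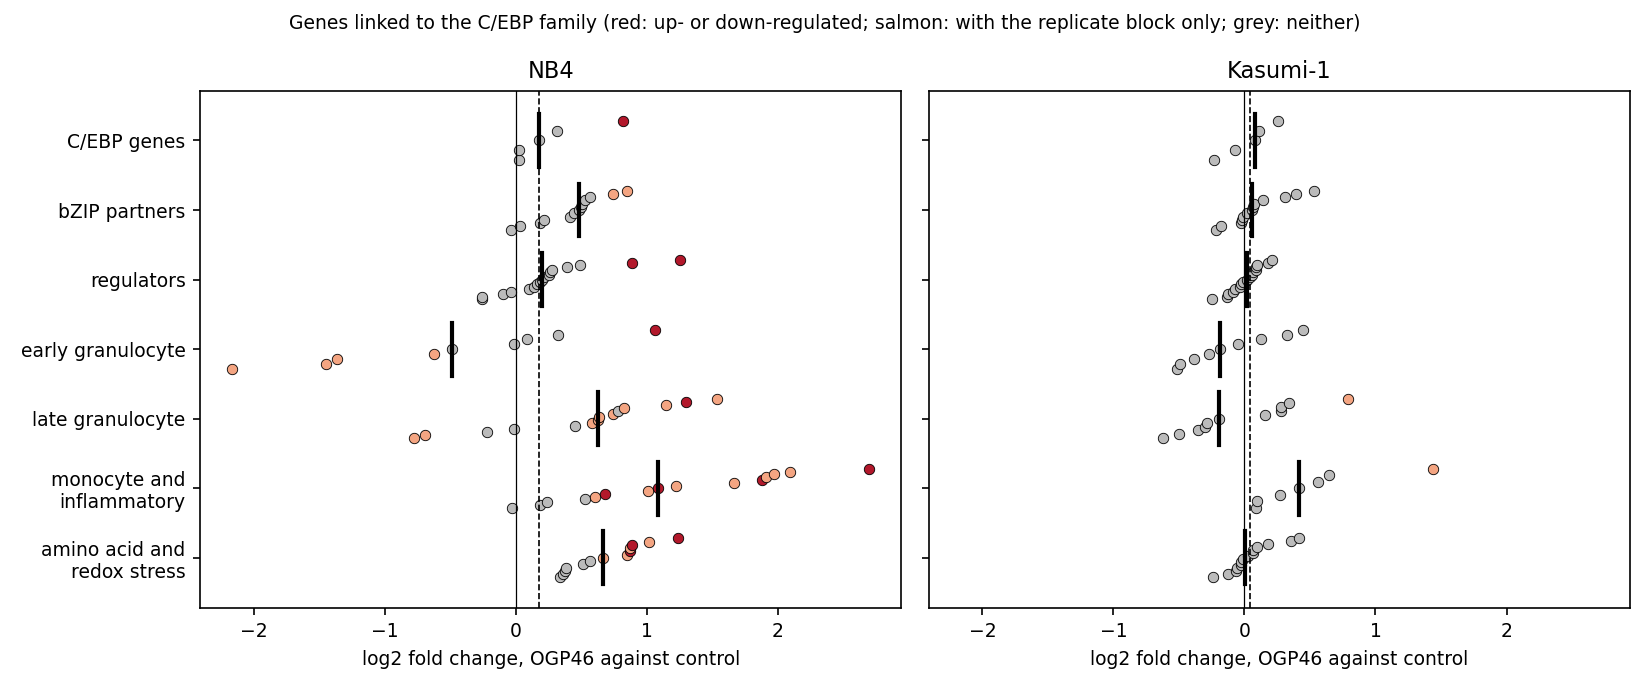
log2 fold change with OGP46 of each tested gene of 7 lists in NB4 and Kasumi-1 cells; short black lines mark the median of a list and the dashed line the median of all genes (0.18 and 0.05). In NB4 cells the monocyte list has the highest median (1.08) and the early granulocyte list the lowest (−0.49), and in Kasumi-1 cells no listed gene is called without the block.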

How the data were processed

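Poly(A) mRNA of 12 samples was sequenced by the authors from stranded libraries, and 1 FPKM value per gene symbol and sample was deposited. Trimmomatic, HISAT2, Cufflinks, HTSeq and build hg38 are named in the submitters' processing notes. Between 0 and 1e-04 lay 632 values, so the values are estimates, and without read counts the depth is unknown. In each sample 27 symbols turned into dates were left out. The members and lists were chosen with earlier results of these data known. On log2(FPKM + 0.1), groups were compared with limma 3.58.1 in R 4.3.3, with moderated variance, a mean-variance trend and a minimum mean of 0.1 FPKM, and p-values were adjusted over all genes tested. The fit without the block was also run on simulated data with independent noise in each sample. That setting lacks the shared deviations of same-numbered samples, and the fit with the block was not simulated. Fold changes are on the log2(FPKM + 0.1) scale, which understates the change of low genes.

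Same-numbered control and OGP46 samples had correlated deviations from their group means in each of 3 pairs (r of 0.44 to 0.85 in NB4 over 6264 genes and 0.42 to 0.62 in Kasumi-1 over 6389 genes with at least 5 FPKM). Over all genes tested r was weaker, 0.20 to 0.62 in NB4 (11750 genes) and 0.16 to 0.40 in Kasumi-1 (11835 genes). The pairing comes from the labels' numbers and this check, and the fit with the replicate block is given where it changes a call. Named from each list were called genes, up to 8, or else the 2 largest changes, and per member the 3 genes most like it. For 1 listed gene no values are given here, though it stays in the counts and medians of its list. Alternatives were pseudocounts of 1 and 0.01, no filter, a minimum of 1 FPKM, equal sums, median centring, quantile normalization, no trend, the replicate block, a joint model and leaving out each sample. Motifs were chosen by hand, with results known.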

Additional observations from a re-analysis of the deposited data

How the results depend on the processing

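The call of CEBPB in NB4 cells was lost without the block under no filter (log2 fold change 0.82, adjusted p = 0.0958), equal sums (0.69), median centring (0.60), quantile normalization (0.63) and no trend (0.82, adjusted p = 0.0657), where 0 members were called higher, and its cause was not tested. It was kept in 7 of 12 such alternatives, the replicate block in each of its 3 forms among them. With 1 sample left out at a time it ranged from 0.71 to 0.91, with 0 to 1 members called. The signs of members that were not called turned as follows. In NB4 cells CEBPA was −0.10 with equal sums, −0.20 with median centring and −0.11 with quantile normalization, CEBPE −0.10, −0.20 and −0.16, and CEBPD −0.042 with median centring, with the same values under the replicate block for equal sums and median centring. In the test of the difference between the lines, CEBPD was −0.081, −0.084 and −0.062 and CEBPE −0.055, −0.059 and −0.065 under these scalings, and the first 2 of each were the same with the replicate block. Leaving out 1 sample, CEBPA ranged from −0.064 to 0.10 and CEBPE from −0.072 to 0.19 in NB4 cells, CEBPG from −0.027 to 0.15 and CEBPE from −0.16 to 0.0057 in Kasumi-1 cells, and in the difference CEBPD from −0.053 to 0.24 and CEBPE from −0.0026 to 0.26. The replicate block changed no other call of a member, and within pairs the CEBPB to CEBPA ratio kept its values of 0.80 and 0.49 (exact sign-flip p = 0.25, the smallest 3 pairs allow). CEBPA was called between the controls in 8 of 8 alternatives and in 6 of 6 with a sample left out, from 3.08 to 3.44.

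Counts over all genes moved more. In NB4 cells 170 genes were called higher and 13 lower, against 595 and 135 with the replicate block, 188 and 203 with the block and median centring, 309 and 139 with the block and equal sums, 409 and 89 in the joint model, 111 and 6 with a pseudocount of 1, 6 and 0 with no filter, 3 and 1 with no trend, and 0 under each of the 3 scalings alone. Leaving out 1 NB4 sample gave 368 and 28 without OGP46 sample 2 and at most 1 in either direction without any other, so the 1.45% of genes called higher rests on this set of samples. In Kasumi-1 cells 2 and 2 became 32 and 41 with the replicate block, 26 and 67 with the block and median centring, 52 and 47 with the block and equal sums, and at most 14 in either direction in the other unblocked fits of all samples. With 1 Kasumi-1 sample left out, 0 to 8 were called higher and 0 to 7 lower. In the test of the difference, 0 genes became 223 larger and 14 smaller in NB4 with the replicate block, 97 and 47 with median centring added, 88 and 41 with equal sums added, and 14 and 0 with a pseudocount of 1 and 9 and 5 with no filter. The unknown depth gives no counting error, so a low value such as IL10 rests on the spread of 3 samples alone.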
